A study of Mus musculus with 9 samples.

Results

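The early B-cell factors *Ebf1*, *Ebf2*, *Ebf3* and *Ebf4* are the 4 members of 1 small transcription factor family. They were taken by name from the 21457 features measured in nuclei of the adult mouse spinal cord, and all 4 were present. They were chosen by their levels in these same nuclei, namely that *Ebf2* marked cholinergic interneurons and that *Ebf3* marked visceral motor neurons of the lumbar and sacral cord. Those contrasts are therefore described below without a test.

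The data are single-nucleus RNA-seq of cholinergic neurons from 12 mice that were 8 weeks old. Every mouse carried Chat-IRES-Cre and the Cre-dependent Sun1-sfGFP nuclear envelope tag, so the sort could collect any nucleus whose lineage had used the *Chat* locus, and no untagged or treated group was compared. The mice formed 3 pools of 4, a mixed pool (replicate 1), a male pool (replicate 2) and a female pool (replicate 3). Each pool was cut into cervical, thoracic and lumbar/sacral cord, giving 9 libraries of pooled animals in which sex cannot be told apart from the pool.

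The libraries held 16042 cholinergic nuclei, of which 5375 were interneurons, 5613 visceral motor neurons (MNs) and 5054 skeletal MNs. The 21 clusters of the authors' annotation (I1 to I8, V1 to V10 and S1 to S3) were used as given. A library held 747 to 2825 nuclei, and its median nucleus held 4712 to 16127 corrected counts. The lumbar/sacral libraries were among the shallower, at 4712 to 7175 against 7087 to 16127. The class markers followed the names. *Pax2* averaged 211 CPM in interneurons against 3.46 and 7.03 CPM in visceral and skeletal MNs, *Zeb2* 387 CPM in visceral MNs against 6.68 and 12.6 CPM elsewhere, and *Tns1* 381 CPM in skeletal MNs against 5.90 and 31.3 CPM elsewhere. CPM here is the sum of a gene's corrected counts in the nuclei of 1 library and group, divided by the sum for all genes and scaled to 1000000.

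A pair of libraries went against their region labels. The positional gene *Hoxa9* was at 9.68 CPM in cervical replicate 2 against 0.412 and 0.213 CPM in the other cervical libraries, and at 0.507 CPM in thoracic replicate 2 against 9.35 and 9.04 CPM in the other thoracic libraries. *Hoxd11* was at 0 in all 6 of these libraries and at 23.0 to 31.0 CPM in the lumbar/sacral ones. An exchange of that pair would therefore leave the same libraries on each side of the lumbar/sacral comparison. The class fits gave cervical and thoracic cord separate means, so an exchange could still change their spread and p-values. The labels were kept, and results that set cervical against thoracic cord are given with and without the pair.

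EBF proteins, also called COE proteins, bind DNA as dimers through a zinc-containing DNA-binding domain and a helix-loop-helix motif, and can pair with one another. *Ebf1* is known for driving early B-cell development and was also found in olfactory neurons, *Ebf2* is known for its part in brown fat, and mutations of human *EBF3* cause a neurodevelopmental disorder. The nematode homologue unc-3 switches on the genes that make cholinergic motor neurons cholinergic. *Zfp423* and *Zfp521*, large zinc-finger proteins, bind EBF proteins and modulate them.

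The genes lie on separate chromosomes and differ in size. On GRCm38, *Ebf1* spans chr11:44617317-45008091 on the plus strand, *Ebf2* chr14:67233292-67430918 on the plus strand, *Ebf3* chr7:137193673-137314445 on the minus strand and *Ebf4* chr2:130295169-130370481 on the plus strand. Nuclear RNA is largely unspliced and intronic reads were counted, so the long genes offer more sequence to count (391 kb for *Ebf1*, 198 kb for *Ebf2*, 121 kb for *Ebf3* and 75.3 kb for *Ebf4*). Antisense genes lie inside *Ebf1* (*Gm12158*), *Ebf2* (*4930438E09Rik*, *Gm6878* and *Gm10860*) and *Ebf3* (*Gm10578* and *Gm45278*). These were 3′ libraries counted in Cell Ranger, and these antisense genes had counts of their own. The sources used here do not say whether strand was used. Mixing of reads between a gene and its antisense partner was not tested. The largest partner by counts, *4930438E09Rik*, had 2146 corrected counts beside 15627 for *Ebf2*, and *Gm12158* had 1261 beside 93699 for *Ebf1*.

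The start regions of the members that moved apart below, *Ebf1* and *Ebf3*, are shown because they differ in base composition. Each line gives the 250 bases before an annotated start (RefSeq, GRCm38.p6), 5′ to 3′ on the gene's strand, with a CCCNNGGG, the core of the palindrome that EBF proteins bind, in capitals. The *Ebf1* windows are chr11:44617850-44618099 and chr11:44619978-44620227 on the plus strand, both inside the Ensembl gene span above, and the *Ebf3* window is chr7:137314446-137314695 on the minus strand, directly before that span.
Ebf1, start 1: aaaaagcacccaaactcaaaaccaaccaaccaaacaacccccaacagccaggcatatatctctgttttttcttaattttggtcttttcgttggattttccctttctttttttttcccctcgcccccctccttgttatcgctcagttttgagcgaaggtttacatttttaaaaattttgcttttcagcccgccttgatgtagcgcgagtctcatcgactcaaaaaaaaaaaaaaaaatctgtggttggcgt
Ebf1, start 2: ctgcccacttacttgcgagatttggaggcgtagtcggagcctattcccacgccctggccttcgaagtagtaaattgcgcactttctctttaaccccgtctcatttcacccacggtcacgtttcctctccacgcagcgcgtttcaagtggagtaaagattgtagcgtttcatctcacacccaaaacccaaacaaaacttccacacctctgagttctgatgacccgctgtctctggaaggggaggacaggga
Ebf3: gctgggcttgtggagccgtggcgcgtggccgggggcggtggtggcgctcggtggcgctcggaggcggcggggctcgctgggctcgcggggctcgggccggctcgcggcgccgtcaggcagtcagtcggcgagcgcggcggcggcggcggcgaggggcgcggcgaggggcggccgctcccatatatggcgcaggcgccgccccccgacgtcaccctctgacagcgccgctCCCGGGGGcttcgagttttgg

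RefSeq promoters were found for 3 of the 4 members. The *Ebf3* window held 43 CpG dinucleotides and was 80.0% G or C, and 0.712% of the 32851 mouse promoters of this length held as many. The *Ebf4* window (chr2:130295689-130295938, plus strand) held 31, as many as 5.19% of promoters. The *Ebf1* windows held 9 and 14 CpG, against a median of 6 over all promoters. The core CCCNNGGG reads the same on both strands, and 11.8% of all promoters held it. Among these windows it occurred once, in *Ebf3*, as CCCGGGGG, beginning 21 bases before the start. The longer palindrome TCCCNNGGGA, which contains the core, was in 0.779% of all promoters and in none of the 4 windows. A match of letters is a description only.

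*Ebf1* was the most abundant of the 4 in interneurons and the only one present at a high level in motor neurons as well. Its mean level over the 9 libraries was 1610 ± 121 CPM (SD) in interneurons, 615 ± 152 CPM in visceral MNs and 121 ± 47.3 CPM in skeletal MNs. Every interneuron library (1414 to 1824 CPM) lay above every visceral one (452 to 948 CPM), and every visceral library above every skeletal one (69.5 to 195 CPM). *Ebf2* was at 389 ± 74.6, 5.94 ± 3.64 and 10.0 ± 5.22 CPM in the same order of classes, and *Ebf3* at 258 ± 36.4, 25.9 ± 34.5 and 12.9 ± 3.71 CPM. The SD of *Ebf3* in visceral MNs exceeded its mean, which is the regional pattern taken up below.

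*Ebf4* stood apart from the other members. Its level was low in every class, at 30.1 ± 3.70 CPM in interneurons, 46.4 ± 8.76 CPM in visceral MNs and 29.3 ± 6.14 CPM in skeletal MNs. Divided by gene length, interneurons held 4.12 CPM per kb of *Ebf1*, 2.14 of *Ebf3*, 1.97 of *Ebf2* and 0.400 of *Ebf4*. This is a rough description only, since counts of 3′ libraries need not rise in proportion to gene length. On this scale *Ebf2* and *Ebf3* were near each other and *Ebf1* was above both.

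Counted another way, interneurons made up 33.5% of the nuclei and held 96.0% of all *Ebf2* counts, 89.2% of *Ebf3*, 67.0% of *Ebf1* and 25.6% of *Ebf4*. Cluster I1 alone held 43.1% of all *Ebf1* counts. At least 1 *Ebf2* count was seen in 66.0% of interneurons and in 3.85% of visceral and 6.62% of skeletal MNs. When every nucleus was thinned to the same total of 4600 counts, these shares became 58.2%, 2.38% and 3.40%. Thinning leaves out the 8.63% of nuclei below that total, all of them lumbar/sacral (44.1% of replicate 1 and 13.6% of replicate 3). The skeletal share rested on 1 library, cervical replicate 2, with a count in 34.3% of its skeletal nuclei and in 54 of its 71 S2 nuclei. Without that library it was 3.15%, and 2.32% thinned. For *Ebf1* the thinned shares were 73.7%, 65.6% and 32.8%, so this gene alone was detected in most visceral MNs. RNA free in the suspension can give a low share in any class.

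Across the 21 clusters *Ebf1* had a wide gradient rather than an on and off pattern. I1 led with 3910 ± 276 CPM (n = 9 libraries) and I5 followed with 2483 ± 227 CPM, each above its successor in every library. V8 (1305 ± 228 CPM, n = 3), V3 (1275 ± 520 CPM), V10 (1159 ± 369 CPM, n = 7) and I6 (1052 ± 108 CPM) came next with overlapping ranges. From V2 at 676 CPM down to V9 at 68.1 CPM each cluster overlapped the next, and I8 closed the order at 19.1 ± 20.1 CPM. The order therefore mixed interneuron and visceral clusters, while the 3 skeletal clusters stayed between 73.0 and 172 CPM.

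*Ebf2* separated the interneurons themselves. I3 (801 ± 104 CPM), I4 (743 ± 101 CPM), I1 (492 ± 55.8 CPM), I7 (361 ± 93.8 CPM, n = 6) and I2 (300 ± 98.8 CPM) carried it, and the sixth cluster, V9, was at 11.1 CPM. I5 and I6, among the clusters richest in *Ebf1*, held 6.03 and 7.80 CPM of *Ebf2*. *Ebf3* followed the same leaders, with I4 (501 ± 61.5 CPM), I3 (480 ± 59.1 CPM) and I1 (377 ± 39.8 CPM) above all others in every library, and then I7 (119 CPM) and I2 (92.4 CPM). V8, I6, V5, I5 and V3 followed at 72.2 to 47.4 CPM. *Ebf4* ran from 61.3 ± 17.0 CPM in I8 to 9.20 ± 6.97 CPM in I4, with every neighbour in the order overlapping, and its lowest levels were in I3 and I4, where *Ebf2* and *Ebf3* were highest.

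**Figure D1:**
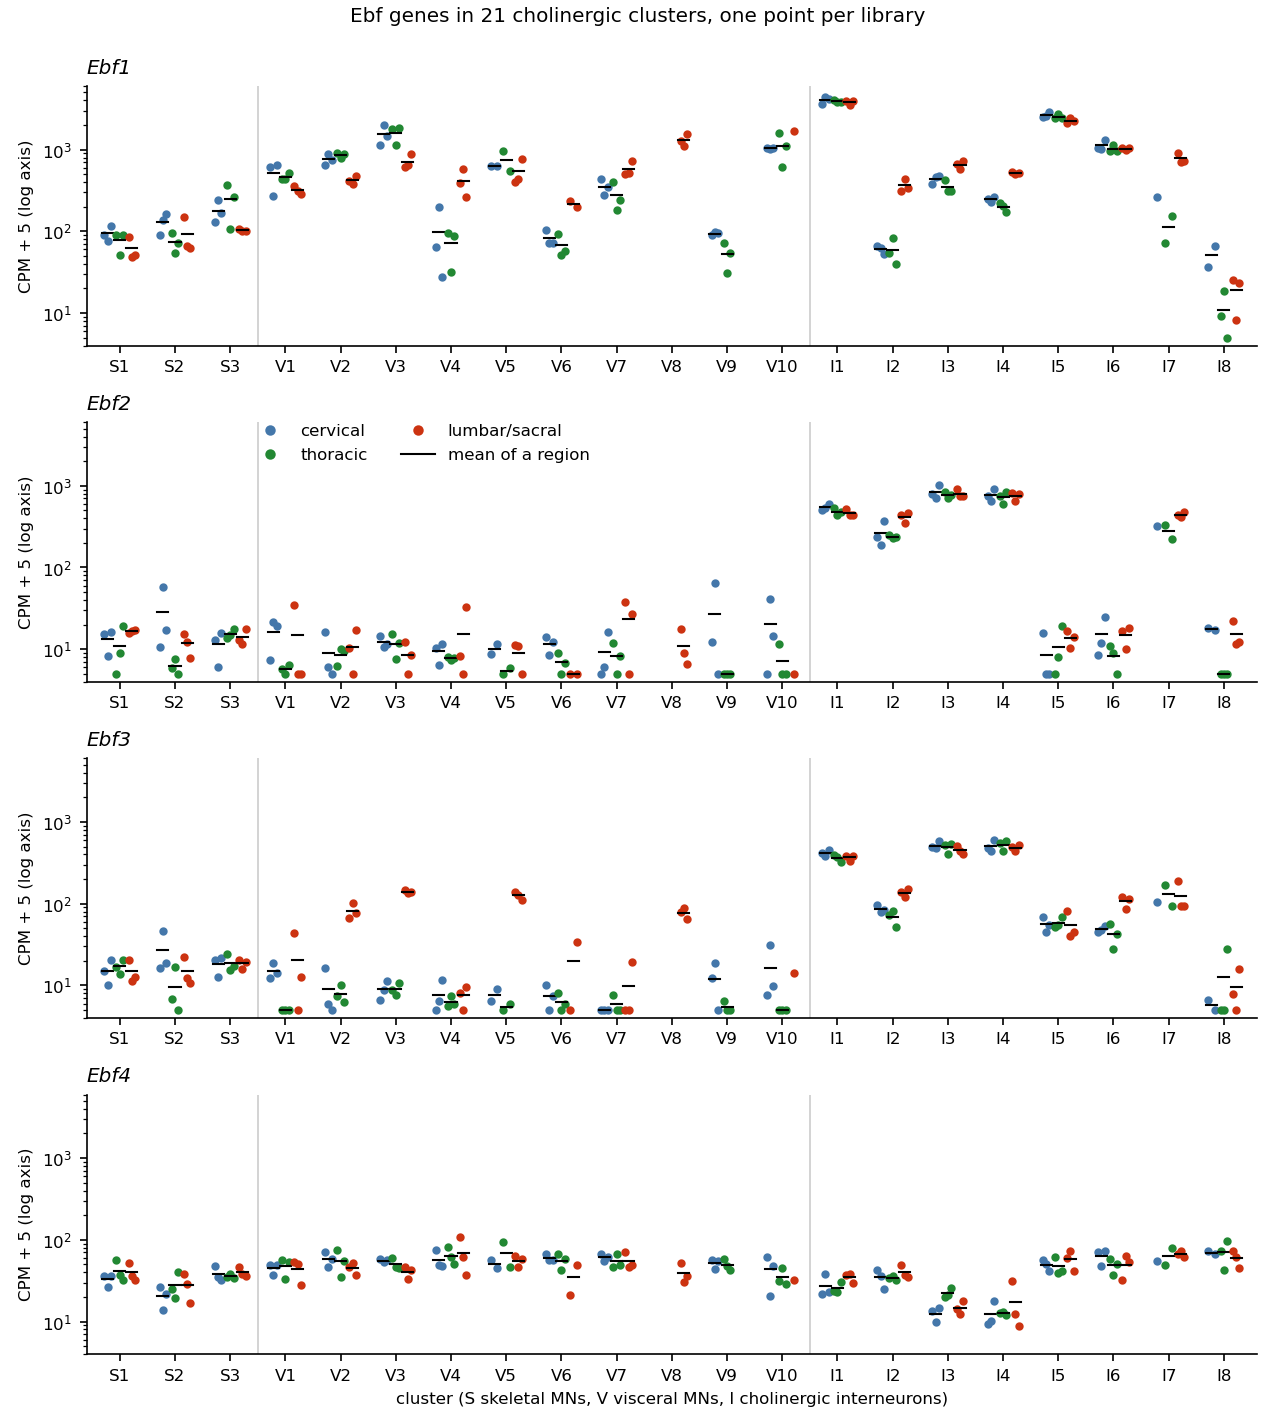
Level of each *Ebf* gene (CPM + 5, log axis) in the 21 clusters, with 1 point per library and the region given by colour. *Ebf1* is spread over all 3 classes with I1 (mean 3910 CPM) and I5 (2483 CPM) at the top, *Ebf2* is confined to I1, I2, I3, I4 and I7 apart from cluster means of 11.1 CPM or less, and *Ebf4* runs from 61.3 to 9.20 CPM in the cluster means.

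Nuclei were then sorted by which of *Ebf1*, *Ebf2* and *Ebf3* had at least 1 corrected count. As corrected counts are adjusted for depth, such a count need not be an observed read. All 3 were seen together in 82.0 ± 12.8% of I1 nuclei (mean and SD over 9 libraries), in 78.0 ± 11.8% of I3 and in 67.2 ± 8.98% of I4. I5 and I6 were low in *Ebf2*, with *Ebf1* alone in 64.7% and 65.7% of their nuclei and *Ebf1* with *Ebf3* in 33.3% and 27.9%. In I8, 85.0 ± 10.2% of nuclei had none of the 3. I2 had no leading combination, with 25.4% showing *Ebf2* alone, 25.1% *Ebf2* and *Ebf3*, 14.3% all 3, 12.8% *Ebf1* and *Ebf2* and 11.3% none. In visceral clusters other than V4, V6 and V9 the leading state over all libraries was *Ebf1* alone, for example 86.9% of V10, 80.3% of V2 and 77.9% of V1. In V4, V6 and V9 and in the skeletal clusters S1 and S2, nuclei with none of the 3 led (53.9% to 62.7%). The S2 mean had a wide spread (53.9 ± 23.0%). In cervical replicate 2, 4.23% of S2 nuclei had none of the 3 and 59.2% had all 3.

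**Figure D2:**
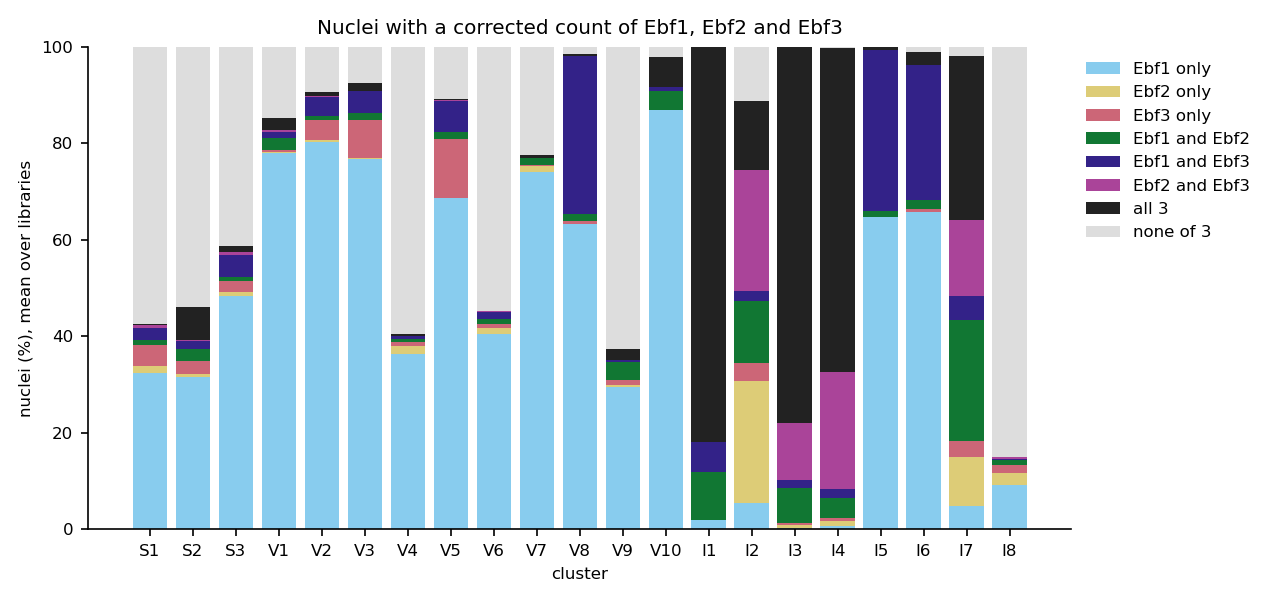
Mean percentage of nuclei per cluster (vertical axis, 0 to 100%, mean over libraries) with each combination of *Ebf1*, *Ebf2* and *Ebf3* detected. I1, I3 and I4 are mostly nuclei with all 3 genes (82.0%, 78.0% and 67.2%), I5 and I6 mostly *Ebf1* alone, and I8 mostly none (85.0%).

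The cluster profiles of the members were compared by Pearson's r of log2(CPM + 5) over the 21 clusters, as a description, since clusters share libraries and depth. *Ebf2* and *Ebf3* were alike (r = 0.868), *Ebf1* and *Ebf3* less so (0.451), *Ebf1* and *Ebf2* little (0.137), and *Ebf4* ran opposite to *Ebf2* (-0.636) and *Ebf3* (-0.646). Among 10842 genes, those most like *Ebf2* after its antisense partner *4930438E09Rik* (0.996) were *C230057M02Rik* (0.992), the paired-box gene *Pax8* (0.990), the homeobox gene *Uncx* (0.986) and *Gad1* (0.984), which encodes an enzyme that makes GABA. *Gm45844* and *Gm20395* (both 0.899) led for *Ebf3*, and *Gm53* (0.894), *Kdm2b* (0.880) and *Uncx* (0.878) followed. *Gm12158*, antisense within the gene, led for *Ebf1* (0.939), then the glycine receptor subunit gene *Glra2* (0.833) and the kinase gene *Dapk1* (0.754). For *Ebf4* it was *Arhgef25* (0.857).

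The first regional comparison asked whether interneurons of the lumbar/sacral cord differed from those of the cervical and thoracic cord. Over the whole class none of the 4 genes did so detectably. *Ebf1* measured 1499, 1414 and 1824 CPM in the cervical libraries, 1634, 1659 and 1578 CPM in the thoracic ones and 1686, 1526 and 1668 CPM in the lumbar/sacral ones. The regions overlapped throughout, and the log2 difference was 0.03 ± 0.11 (SE; limma, adjusted p = 0.9997). The log2 differences of *Ebf2*, *Ebf3* and *Ebf4* were 0.30 ± 0.17, 0.19 ± 0.13 and 0.07 ± 0.13, each with a limma adjusted p of 0.9997. None of the 4 was called, where 0.051% of the 9805 genes tested were.

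Inside the clusters the even class level of *Ebf1* came apart. In I2 it measured 60.8, 57.5 and 47.8 CPM in the cervical libraries, 49.0, 77.1 and 34.4 CPM in the thoracic ones, and 308, 438 and 338 CPM in the lumbar/sacral ones. All 3 lumbar/sacral libraries lay above all others, and the means were 361 ± 68.0 and 54.4 ± 14.4 CPM, 6.64-fold apart. In I4 *Ebf1* measured 241, 223, 260, 216, 198 and 168 CPM in the cervical and then the thoracic libraries, and 530, 499 and 508 CPM in the lumbar/sacral ones, a 2.35-fold difference of means without overlap. In I3 the values were 378, 457, 475, 425, 308 and 305 CPM against 664, 566 and 713 CPM, again without overlap (1.66-fold).

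I1, which held the most *Ebf1*, did not share this pattern. Its values were 3602, 4447, 4144, 4007, 3848 and 3767 CPM in the cervical and thoracic libraries and 3888, 3541 and 3949 CPM in the lumbar/sacral ones, and they overlapped. I5 leaned the other way with overlap, at 2594 ± 171 against 2262 ± 153 CPM. I6 overlapped too, at 1070 ± 130 against 1017 ± 39.0 CPM. I7, too rare for a test, had 903, 710 and 725 CPM in the lumbar/sacral libraries and 259, 66.9 and 147 CPM in the other 3 libraries with at least 10 nuclei, where 4.82% of genes had every lumbar/sacral library above every other. I5 was 14.1% of cervical and thoracic interneurons and 7.10% of lumbar/sacral ones, and I1 26.6% and 30.3%.

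*Ebf3* had its own regional clusters. In I6 it measured 39.9, 42.3, 47.9, 51.2, 22.7 and 37.1 CPM in the cervical and thoracic libraries and 117, 80.6 and 108 CPM in the lumbar/sacral ones, without overlap and 2.53-fold apart in the means. In I2 its values were 91.2, 74.0, 79.7, 67.6, 77.1 and 46.7 CPM against 132, 117 and 146 CPM, also without overlap (1.81-fold). In I1, I3, I4 and I5 the *Ebf3* ranges overlapped. *Ebf2* in I2 measured 233, 183, 363, 243, 223 and 228 CPM against 428, 342 and 454 CPM, where cervical replicate 3 (363 CPM) lay above the lowest lumbar/sacral library.

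**Figure D3:**
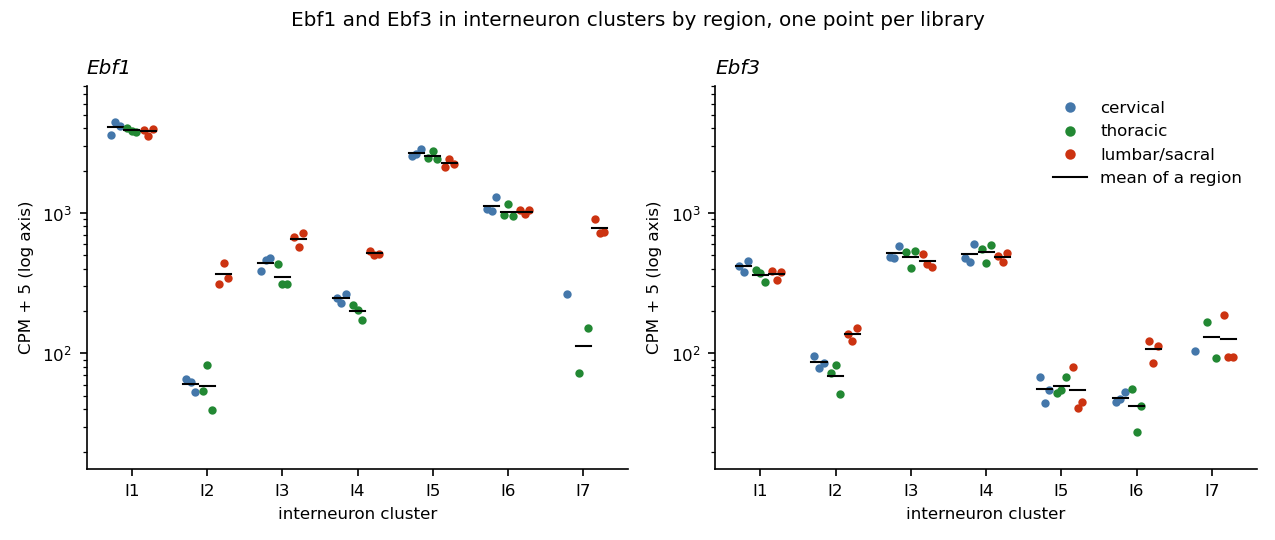
*Ebf1* (left) and *Ebf3* (right) in interneuron clusters I1 to I7 (CPM + 5, log axis), with 1 point per library of at least 10 nuclei and the region given by colour. For *Ebf1* the 3 lumbar/sacral points are above all others in I2, I3, I4 and I7 and among them in I1, and for *Ebf3* they are above all others in I2 and I6.

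The two-sided exact permutation test over libraries could not settle these differences after adjustment. With 3 libraries against 6 it has 84 groupings and a smallest p of 0.0119, and 35 gene and cluster pairs were tested in S1 to S3 and I1 to I6. That smallest p was reached by 5 pairs, *Ebf1* in I2, I3 and I4 and *Ebf3* in I2 and I6, each with an adjusted p of 0.0833, so no pair was called. *Ebf2* in I2 had p = 0.0238 (exact, adjusted 0.139) and *Ebf1* in I5, lower in lumbar/sacral cord, p = 0.0357 (exact, adjusted 0.179). Of all genes tested in a cluster, the share in which every lumbar/sacral library was above every other was 1.74% in I2, 0.867% in I3, 0.918% in I4 and 2.83% in I6.

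A limma fit of all genes inside each cluster, added after these values were seen, borrowed its spread from the other genes. It called 3 pairs after adjustment over all genes tested in the cluster. *Ebf1* was higher in lumbar/sacral I2 by 2.64 ± 0.21 on the log2(CPM + 5) scale (adjusted p = 6.04e-05, limma), in a cluster where 0.501% of genes were called. It was higher in I4 by 1.23 ± 0.15 (adjusted p = 0.00677, limma; 0.051% of genes called), and *Ebf3* in I6 by 1.26 ± 0.24 (adjusted p = 0.0206, limma; 0.925% of genes called). *Ebf1* in I3 differed by 0.73 and was not called (adjusted p = 0.699, limma; 0.0317% of genes called), and in I1 by -0.06. With the pool of mice as a replicate block 5 pairs were called, the others being *Ebf2* in I2 (0.74, adjusted p = 0.0226, limma) and *Ebf3* in I2 (0.84, adjusted p = 0.0416, limma), at 0.124 and 0.0797 without the block. Without any 1 of lumbar/sacral replicates 1, 2 and 3, *Ebf1* in I2 was the 1 pair still called, with *Ebf1* in I4 at adjusted p = 0.0780 to 0.0916 and *Ebf3* in I6 at 0.0543 to 0.189 (limma).

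The regional differences of clusters were also set side by side for 4 pairs, as a description with no test, since the pairs were picked for these values. Within a library, log2 *Ebf1* in I2 minus that in I1 was -3.64 to -3.001 in lumbar/sacral cord and -6.58 to -5.55 elsewhere. The regional difference in I2 exceeded that in I1 by 2.71 on the log2 scale. It exceeded that in I1 by 0.80 in I3 and by 1.29 in I4, and for *Ebf3* that in I6 exceeded that in I5 by 1.36.

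The *Ebf1* difference in I2 lay in a minority of nuclei with many counts. At least 3 *Ebf1* counts were found in 18 of 128 (14.1%), 29 of 129 (22.5%) and 22 of 95 (23.2%) lumbar/sacral I2 nuclei. In the cervical and thoracic libraries that share was 3.54%, 12.9%, 5.26%, 3.64%, 6.80% and 4.00%, so the groups did not overlap although the lumbar/sacral libraries were shallower. At least 10 counts were found in 5, 16 and 4 lumbar/sacral I2 nuclei and in 1 of 428 others. In I4 at least 3 counts were found in 36.3%, 45.1% and 42.2% of lumbar/sacral nuclei and in 18.6% to 56.0% elsewhere, with overlap. Thinned to the same total, nuclei with any *Ebf1* made up 39.8% against 17.4% of I2, 76.4% against 51.9% of I4 and 90.0% against 76.6% of I3, and unthinned 46.5% against 28.4%, 78.3% against 71.7% and 87.0% against 87.5%.

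**Figure D4:**
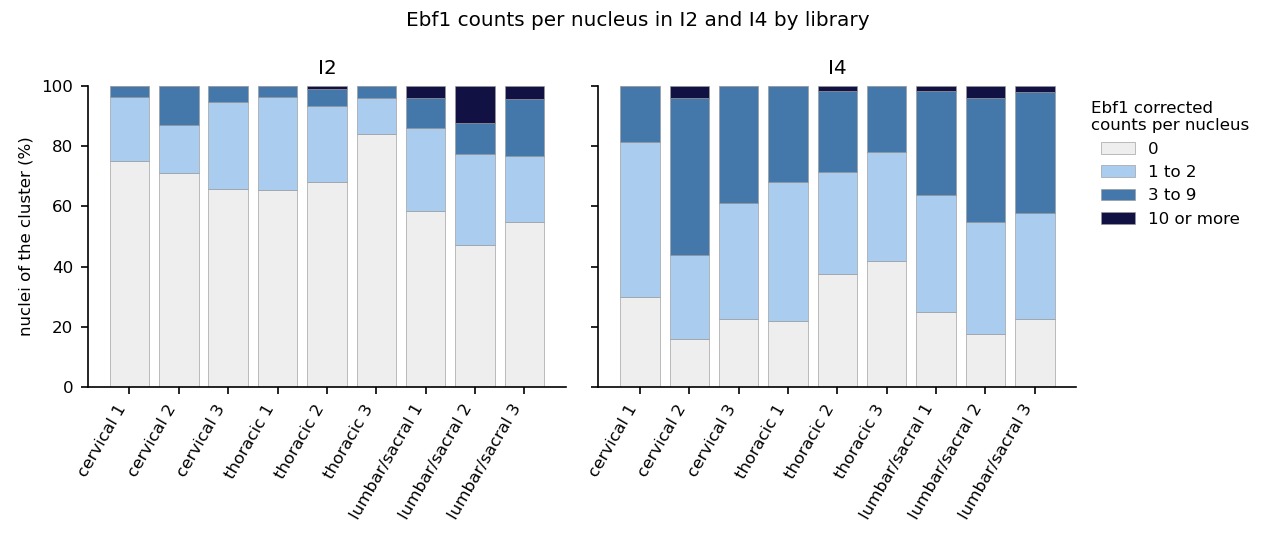
Percentage of I2 (left) and I4 (right) nuclei in each library by their *Ebf1* corrected counts. In I2 the class with at least 3 counts is 14.1% to 23.2% of nuclei in the lumbar/sacral libraries and 3.54% to 12.9% in the others, and in I4 the 2 sets of libraries overlap.

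Genes of neighbouring clusters were read in the same sums. The 12 marker genes of I1 together measured 150 to 192 CPM in lumbar/sacral I2 and 82.8 to 159 CPM in the other I2 libraries, against 1316 ± 168 CPM in I1. In I4 they measured 92.3 to 105 against 65.6 to 91.4 CPM, and in I3 46.7 to 65.9 against 49.2 to 108 CPM. In I6 the I5 markers overlapped (298 to 312 against 297 to 490 CPM, with 3044 CPM in I5). Markers of other classes moved with region in I6, I2, I3 and I5. In I5 the visceral MN markers summed to 42.8 to 86.9 CPM in lumbar/sacral libraries against 13.2 to 34.6 CPM elsewhere. In I6 the interneuron markers summed to 429 to 486 CPM in lumbar/sacral libraries against 538 to 609 CPM elsewhere, the visceral MN markers to 23.4 to 42.6 against 1.69 to 22.5 CPM, the inhibitory markers to 26.2 to 38.9 against 7.98 to 20.8 CPM and the excitatory markers to 65.4 to 68.8 against 18.8 to 50.6 CPM. Excitatory markers summed to 6.07 to 11.7 against 0 to 5.43 CPM in I2 and to 9.41 to 14.9 against 0 to 9.10 CPM in I3, and overlapped in I4 (9.62 to 18.0 against 2.30 to 10.6 CPM). Their part in the *Ebf* differences was not tested. Mural and fibroblast markers, from cells that use *Ebf1* and *Ebf2*, summed to at most 6.91 CPM in I2, I4 and I6.

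Visceral MNs are the preganglionic neurons of the autonomic system, and here *Ebf3* was the regional member, as the choice of genes already used. It measured 3.80, 6.37 and 4.82 CPM in the cervical libraries, 1.85, 1.11 and 1.03 CPM in the thoracic ones and 76.8, 76.6 and 60.7 CPM in the lumbar/sacral ones. The lumbar/sacral libraries stood more than 50 CPM above all others, at a mean of 71.4 ± 9.25 against 3.16 ± 2.19 CPM. Thinned to the same total, 21.7% of lumbar/sacral visceral nuclei had an *Ebf3* count, against 1.41% of the rest. Of all genes tested in this class, 5.31% had every lumbar/sacral library above every other, which is given as background and adds nothing to a contrast that chose the gene.

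The signal came from 4 of the 10 visceral clusters. Of 595 *Ebf3* counts in 1500 lumbar/sacral visceral nuclei, V8 held 30.1%, V3 26.9%, V5 24.5% and V2 16.0%. *Ebf3* was at 140, 130 and 132 CPM in lumbar/sacral V3, at 136, 123 and 105 CPM in V5, at 60.8, 95.8 and 72.0 CPM in V2 and at 73.7, 82.6 and 60.4 CPM in V8, a cluster with almost no nuclei from elsewhere. In the cervical and thoracic libraries the same gene was at most 11.1 CPM in V2, 6.44 CPM in V3 and 3.92 CPM in V5. V4 and V7, although present in all 3 regions, did not take part, and V4 held at most 4.57 CPM of *Ebf3* in lumbar/sacral cord. The 4113 cervical and thoracic visceral nuclei held 117 *Ebf3* counts. Every lumbar/sacral library was above every other for 3.83% of genes in V2, 2.62% in V3 and 6.95% in V5.

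*Ebf1* in the same clusters ran in both directions. In V3 it measured 1142, 1989, 1453, 1801, 1135 and 1827 CPM in the cervical and thoracic libraries and 614, 638 and 872 CPM in the lumbar/sacral ones, a ratio of 0.455. In V2 it measured 639, 867, 750, 915, 784 and 884 CPM against 403, 370 and 476 CPM, a ratio of 0.516. In V4 the order was turned, at 59.2, 196, 22.9, 90.3, 26.9 and 82.4 CPM against 387, 575 and 261 CPM. None of these sets overlapped, and over all genes tested 2.86% in V3 and 3.74% in V2 had every lumbar/sacral library lower and 5.11% in V4 every one higher. V7 was likewise higher (503, 506 and 721 CPM against 177 to 431 CPM, with 4.35% of genes), and V1 and V5 overlapped.

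Over the whole visceral class *Ebf1* measured 735, 645 and 948 CPM in lumbar/sacral cord and 557, 513, 640, 523, 452 and 522 CPM in the other libraries, apart by a narrow margin. V8, with 1281, 1089 and 1543 CPM, held 51.3% of the lumbar/sacral visceral *Ebf1* counts in 30.9% of the nuclei. Without V8 the class measured 463, 495 and 666 CPM against 452 to 640 CPM, and the groups overlapped. The removal of V8 was tried after its values were seen. *Ebf2* stayed low in both (6.59 and 5.61 CPM).

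**Figure D5:**
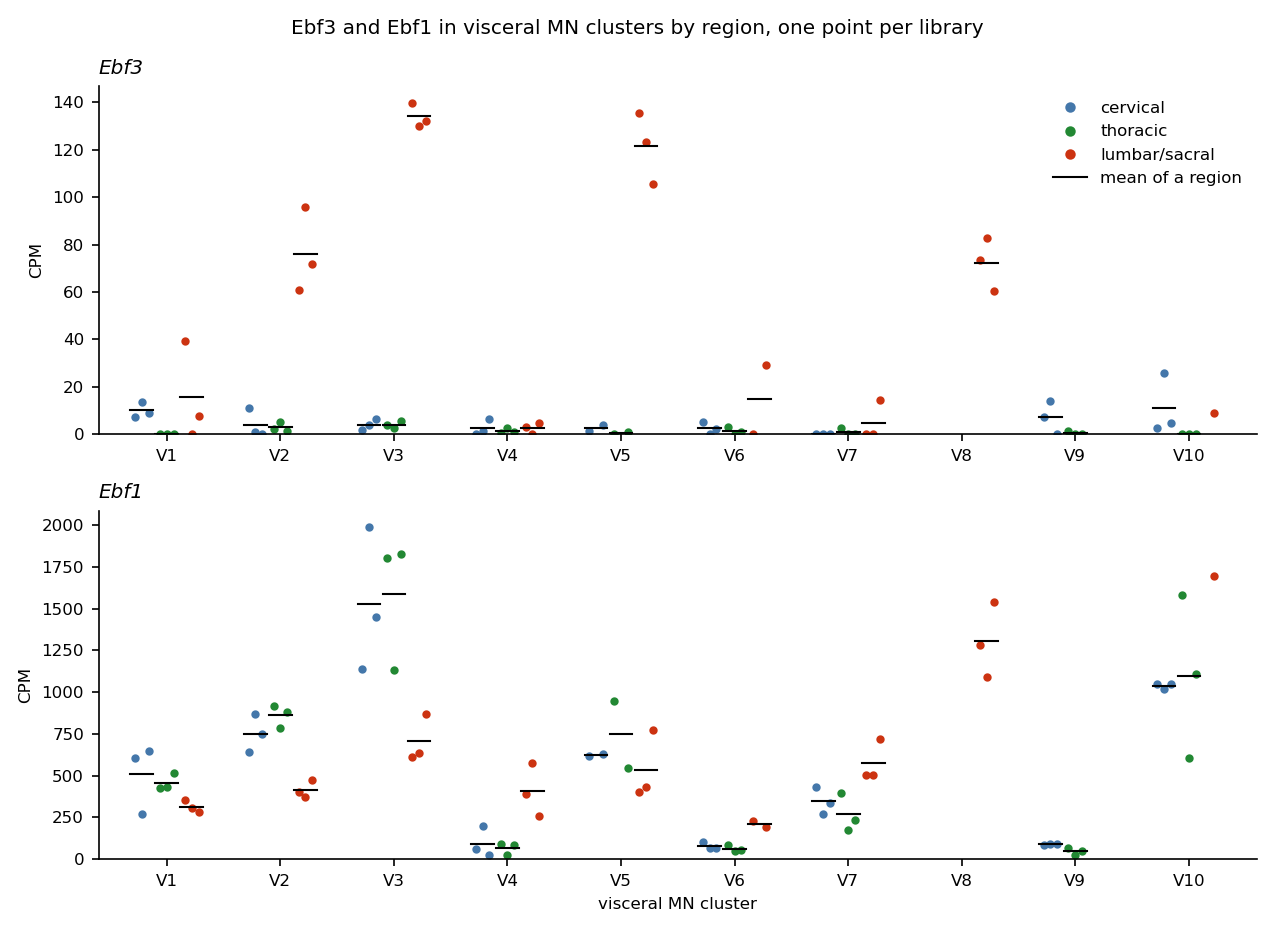
*Ebf3* (top) and *Ebf1* (bottom) in visceral MN clusters (CPM, linear axis from 0), with 1 point per library of at least 10 nuclei and the region given by colour. *Ebf3* points at 60.4 to 140 CPM are all lumbar/sacral and lie in V2, V3, V5 and V8, and for *Ebf1* the lumbar/sacral points are the lower ones in V2 and V3 and the higher ones in V4 and V7.

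*Ebf3* and *Ebf1* tended to be found in different nuclei of these lumbar/sacral clusters. In V3, 54.3% of nuclei without *Ebf1* had an *Ebf3* count (50% to 59.0% over 3 libraries) and 20.3% of nuclei with *Ebf1* did (13.9% to 26.3%). The same shares were 70.6% and 23.9% in V5, and 37.7% and 14.6% in V2. V8 differed, since *Ebf1* was in nearly every nucleus, 63.3% holding it without *Ebf2* or *Ebf3* and 32.7% with *Ebf3*. In V2 and V3 the nuclei with any *Ebf1* were 65.2% and 57.0% of lumbar/sacral nuclei and 96.2% and 98.3% of the others. These counts come from the nuclei that the clusters were drawn from and carry no test.

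The V8 markers were picked as the genes highest in V8 over the other visceral clusters. As V8 is almost all lumbar/sacral, cluster and region cannot be told apart in this choice. Summed, the V8 markers were higher in lumbar/sacral V2 and overlapped by region in V3 and V5. Together they measured 944 to 1492 CPM in lumbar/sacral V2 and 98.2 to 404 CPM in the other V2 libraries, 669 to 1034 against 174 to 1322 CPM in V3, and 386 to 439 against 343 to 849 CPM in V5, with 5808 CPM in V8. Mural and fibroblast markers in V5 summed to 11.9 to 18.5 CPM in lumbar/sacral libraries and 0 to 8.23 CPM elsewhere. Most of this was *Rgs5*, at 7.95 to 18.5 against 0 to 6.81 CPM without overlap, with *Vtn* and *Col1a2* at 0. Inhibitory neuron markers in V5 summed to 37.0 to 46.8 against 0 to 31.4 CPM, and in V3 to 40.7 to 88.4 against 8.36 to 36.3 CPM. Interneuron markers in V3 were lower, at 20.4 to 31.9 against 38.4 to 86.4 CPM. The visceral MN markers themselves stood higher in lumbar/sacral V2 (1465 to 1731 against 1015 to 1421 CPM) and V3 (1629 to 1868 against 1063 to 1494 CPM). Their part in the *Ebf* values was not tested.

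Skeletal MNs drive voluntary muscle and held little of any member. *Ebf1* measured 98.5, 158 and 146 CPM in cervical, 195, 74.4 and 173 CPM in thoracic and 103, 75.6 and 69.5 CPM in lumbar/sacral libraries. The regions overlapped, and the log2 difference of -0.68 ± 0.29 was not called (adjusted p = 0.900, limma), where 0.01% of 9999 genes were. In S3, 124, 240, 161, 364, 103 and 261 CPM stood against 101, 96.5 and 95.4 CPM, without overlap by a narrow margin (exact permutation p = 0.0595, adjusted 0.260). Of all genes in S3, 0.63% had every lumbar/sacral library below every other, and 0.061% were called by limma, *Ebf1* not among them (adjusted p = 0.724). *Ebf2*, *Ebf3* and *Ebf4* differed by -0.06, -0.17 and 0.16 on the log2 scale and were not called.

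Cervical and thoracic cord were compared in each class with the labels as given. No gene of any kind passed adjustment in any class (0% called), and 189 genes had an unadjusted limma p below 0.05 in interneurons. In skeletal and visceral MNs 607 and 160 genes did. *Ebf1* was not called in any class, with log2 differences, cervical minus thoracic, of -0.05 in interneurons (adjusted p = 0.943, limma), 0.19 in visceral MNs (adjusted p = 0.945) and -0.05 in skeletal MNs (adjusted p = 0.961). Without the pair of libraries that went against their labels these were 0.04, 0.19 and -0.59 (limma adjusted p = 0.933, 0.825 and 0.784). That fit called 1 gene in skeletal MNs and 0 in the other classes, with 354, 347 and 527 genes at an unadjusted p below 0.05 in interneurons, skeletal and visceral MNs. *Ebf3* in visceral MNs passed the filter on low values only through its lumbar/sacral libraries and is given here without a test, at the 1.03 to 6.37 CPM shown above.

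The male pool was compared with the female pool over 3 regions each, with region as a term. *Ebf2* and *Ebf3* in interneurons were lower in the male pool by 0.31 ± 0.11 and 0.25 ± 0.09 on the log2 scale, and neither was called (adjusted p = 0.348 and 0.355, limma). In each pool of 3 libraries *Ebf2* measured 351, 276 and 394 CPM (male) and 473, 364 and 424 CPM (female), with overlap. *Ebf1* in visceral MNs was at -0.36 (adjusted p = 0.328, limma) and in skeletal MNs at -0.31 (adjusted p = 0.655, limma). Of all genes 0.0521%, 0.0725% and 0.0513% were called in interneurons, skeletal and visceral MNs, and no *Ebf* gene was among them. Leaving out cervical replicate 2 or cervical replicate 3 left the thoracic and lumbar/sacral libraries to carry the comparison. *Ebf1* in skeletal MNs was then at -0.52 and was called (adjusted p = 0.0230 and 0.0348, limma). These fits called 1314 and 1329 genes of this class in place of 7. The -0.52 averaged opposite directions. By the values given above, the male library was lower in thoracic cord and slightly higher in lumbar/sacral cord. The male thoracic library, thoracic replicate 2, belonged to the pair that went against their labels.

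The partner genes were present in every class. *Zfp423* averaged 102, 125 and 117 CPM and *Zfp521* 128, 114 and 78.9 CPM in interneurons, visceral and skeletal MNs, and neither of the 2 was called by region in interneurons or skeletal MNs. In visceral MNs *Zfp521* was higher in lumbar/sacral cord, at a mean of 200 against 70.5 CPM, by 1.44 ± 0.15 on the log2 scale (adjusted p = 0.00104, limma; 4.27% of 10031 genes called). That call held with any 1 library left out. V8, a cluster rich in *Zfp521* (430 CPM), was 30.9% of lumbar/sacral visceral nuclei and 0.0973% of the others. The fit was not repeated without V8, so a change inside the other clusters was not tested. *Zfp423* in visceral MNs differed by 0.18 and was not called (adjusted p = 0.735, limma). *Zfp521* varied by cluster, with 455 ± 146 CPM in I8, 430 ± 26.8 CPM in V8, 359 ± 57.4 CPM in I4 and 208 ± 31.7 CPM in I3 against 14.0 CPM in I5 and 8.39 CPM in I7. *Zfp423* was at 218 ± 24.5 CPM in I6 and 191 ± 27.9 CPM in I5, the *Ebf1* clusters low in *Zfp521*, and at 25.6 CPM in I2.

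Of the 5 cholinergic genes, 4 were in the matrix, among them *Chat*, which makes acetylcholine, and the choline transporter gene *Slc5a7*. None of the 3 tested in interneurons as a class was called by region (median log2 difference -0.35, against 0.01 over all genes tested). In I6, where *Ebf3* was higher in lumbar/sacral cord, 2 of 4 were called and both were lower there, *Chat* by -0.76 (adjusted p = 0.0254, limma) and *Slc5a7* by -1.05 (adjusted p = 0.00318, limma), beside the 0.925% of all genes called in I6. Without 1 lumbar/sacral library I6 had 31 to 41 calls in place of 93. *Chat* then had a limma adjusted p of 0.0353 to 0.225 and *Slc5a7* one of 0.0177 to 0.0352. In I2, I3 and I4 none was called.

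The listed spinal interneuron transcription factors were mixed in these classes. *Pax2* (211 CPM), *Pax8* (108 CPM) and *Lhx5* (16.0 CPM) were at their highest in interneurons, while *Tox* was at 42.5 CPM in interneurons and 67.1 CPM in visceral MNs and *Foxp2* at 8.57 and 80.5 CPM. *Lhx1* and *En1* were at 1.08 and 0.328 CPM in interneurons, and *Evx1* at 0. Of 12 listed, 10 were in the matrix and 6 were tested, and none was called by region in interneurons (median 0.16). In visceral MNs 2 were tested and *Tox* was called, lower in lumbar/sacral cord by -1.40 (adjusted p = 0.0176, limma; called in 7 of 10 fits that left out 1 library or the pair above). Of 7 genes that the study named in these nuclei as marks of visceral MNs of particular regions, none was called in interneurons as a class, and inside clusters *Sema5a* was higher in lumbar/sacral I2 (2.20, adjusted p = 0.0119, limma, in a cluster where 0.501% of genes were called). Without 1 lumbar/sacral library its limma adjusted p was 0.0395 to 0.159. *Adra1a* was called higher in lumbar/sacral S1 (1.21, adjusted p = 0.0450, limma; 7 of 10025 genes called), and in 2 of 13 alternative fits. *Penk* was higher in lumbar/sacral I6 by 2.41. It passed the filter on low values only with all its lumbar/sacral libraries present, so it is given without a test.

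The programmes that EBF proteins run elsewhere were mostly low here. Of 8 B-cell genes of the *Ebf1* programme, 5 were in the matrix and together reached 5.77 to 37.5 CPM in a library, with *Pax5* at 13.1 CPM in interneurons and 0.372 CPM in skeletal MNs, and neither of the 2 tested in interneurons was called. All 6 brown fat genes of the *Ebf2* programme were in the matrix, and their sum was higher in skeletal MNs (201 to 260 CPM), where *Ebf2* itself was at 10.0 CPM, than in interneurons (68.3 to 92.8 CPM). *Ppargc1a*, a regulator of mitochondria, made up most of both at 166 and 63.8 CPM, and *Ucp1*, the heat-producing protein of brown fat, was at most 0.813 CPM in any library. The 1 brown fat gene tested by region in interneurons was not called.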

How the data were processed

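Nuclei of Chat-IRES-Cre::Sun1-sfGFP mice were sorted, and 9 droplet libraries were made, 3 regions from each of 3 pools of 4 mice. The deposited matrix holds score values: per the study's methods, the authors counted exonic and intronic reads on mm10 in Cell Ranger (version 3.1.0), removed outlier nuclei, and normalised each separately barcoded region on its own with Seurat's SCTransform. That the deposited values are such depth-corrected counts was read from the values, since totals of nuclei of 1 library were nearly equal (SD 5.85% to 10.7% of the mean). The submitters' processing notes also name DESeq2, which was not used here. Cell classes and clusters are the authors' annotation. Singlets were sorted by the authors and no doublet caller was run. Libraries share 33 barcodes in 66 cholinergic nuclei, which were kept.

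Values were summed over nuclei of a library and class or cluster (at least 10 nuclei), scaled to 1000000 (CPM) and, for tests, fitted with limma 3.58.1 (R 4.3.3) with a trend on log2(CPM + 5), which understates changes of low genes. Genes with at least 10 CPM in 3 sums were tested, with Benjamini-Hochberg adjustment over all of them and a threshold of 0.05. Sums of single genes inside clusters were compared by two-sided exact permutation over libraries (Python 3.11.15, scipy 1.17.1). Summed counts per library ran from 9751375 to 19432614. Intervals, SDs and p-values measure the spread between these libraries. The libraries are 3 regions cut from each of 3 pools of animals, so they are not independent pools. The male against female comparison has a single pool of each sex. Its p-values therefore rest on the spread between regions of those pools and do not measure spread between pools or animals. On simulated sums with the interneuron layout and 9502 genes, limma recovered 100% of 200 genes changed 4-fold between lumbar/sacral and other cord. Of its calls, 11.1% were false. The simulation gave every gene the same fixed spread, had no pool effect and changed only genes above a low level in class sums. It therefore does not measure the power of the fits on these libraries, on smaller changes or on cluster sums. Same-numbered libraries come from the same pool of mice, so the pool was used as a replicate block in an alternative fit. Deviations from the region means correlated at -0.22 to 0.92 between same-numbered libraries and at -0.818 to 0.612 between others. The promoters are RefSeq's, on GRCm38.p6.

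The 4 genes and all gene lists were chosen with earlier results of these data known. Named genes are the members, the genes of those lists, and the 5 genes most like a member over the 21 clusters. Summed markers of other cell types per library over the 3 classes, in CPM, were endothelium (at most 6.33), oligodendrocytes (34.9 to 91.7), astrocytes (at most 6.30), microglia (at most 25.2), B cells (at most 0.854), mural cells and fibroblasts (at most 7.75) and excitatory neurons (at most 15.7), with inhibitory neuron markers at 272 to 362 in interneurons. The alternatives were pseudocounts of 1 and 20, other filters, median-of-ratios scaling, the replicate block, at least 30 nuclei, shares of nuclei, and leaving out each library or pool. The limma fits inside clusters, the thinned shares within clusters, the differences between clusters, the values without cluster V8 and the fits without cervical replicate 2 and thoracic replicate 2 were added after seeing the data.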

Additional observations from a re-analysis of the deposited data

Results flagged for a closer look

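A pair of values stood far from the rest of their group by Dixon's criterion, which chance meets in about 1 group of 20, and 2 of 21 groups tested did so. *Ebf2* in skeletal MNs was at 22.4 CPM in cervical replicate 2, one of the libraries that go against their labels, where the next library was at 11.6 CPM, and the mean of the other 8 libraries was 8.48 CPM. *Ebf2* in I2 was at 363 CPM in cervical replicate 3, where the next cervical or thoracic library was at 243 CPM. Without cervical replicate 3 the lumbar/sacral difference of *Ebf2* in I2 was 0.86 on the log2 scale (adjusted p = 0.0246, limma), and with it the adjusted p was 0.124.

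The lumbar/sacral difference in 1 cluster was set beside that in another for 4 pairs, picked because their values differed. For *Ebf1*, it exceeded that in I1 by 2.71 in I2, by 0.80 in I3 and by 1.29 in I4, and for *Ebf3* that in I6 exceeded that in I5 by 1.36, all on the log2 scale. All 3 lumbar/sacral libraries lay on 1 side of the 6 others in each pair. As the pairs were picked for this, the difference was not tested.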

How the results depend on the processing

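Among the summary results, 145 values under an alternative stayed as reported and 6 moved, and among single genes 297 stayed, 3 crossed into a call, 6 out of it and 7 turned direction. With the replicate block, limma inside clusters called 5 *Ebf* pairs in place of 3, and with 1 library left out 1 to 4. Leaving out 1 library gave 0 to 1 *Ebf* gene called between the male and female pools in skeletal MNs. *Ebf1* between regions in interneurons turned direction near 0 (-0.0114 to 0.0802 with 1 library left out, -0.0036 without cervical replicate 2 and thoracic replicate 2), as did its CPM difference in I1 (-306 to 38.9 with 1 pool left out). Unthinned shares of nuclei turned for *Ebf1* in I3 (-0.495 percentage points), *Ebf2* in I2 (-0.309) and *Ebf3* in I2 (-0.468), where lumbar/sacral nuclei held fewer counts. The exact permutation test called no pair under any alternative. The replicate block raised its smallest p to 0.037, and the smallest adjusted p was then 0.185 (exact permutation). With 1 pool left out, the libraries were too few for any p below 0.05, so no call was possible. Those fits are among the 145 values that stayed and do not speak to stability. Over all genes, the block moved the calls between regions from 5 to 44 in interneurons, from 48 to 123 in I2, from 5 to 23 in I4 and from 93 to 166 in I6, and it changed no other *Ebf* call. Median-of-ratios scaling moved the median log2 difference of all genes in skeletal MNs from 0.12 to -0.01. Between the male and female pools, leaving out cervical replicate 2 or 3 moved the genes called from 7 to 1314 and 1329 in skeletal MNs, from 5 to 1251 and 1331 in interneurons and from 5 to 362 and 425 in visceral MNs. The cause of these changes was not tested. Depth limits *Ebf2* in motor neurons and *Ebf3* in cervical and thoracic ones (117 counts in 4113 visceral nuclei).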

Other observations

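Lumbar/sacral I2 nuclei with at least 3 *Ebf1* counts (18, 29 and 22 nuclei in replicates 1 to 3) were set beside those with none (75, 61 and 52 nuclei), after the values above had been seen and with no test. Their median totals were similar, for example 4193 and 4494 in replicate 1. Among the genes higher in the *Ebf1* nuclei of all 3 libraries were *Otof*, a synaptic vesicle protein gene (277 against 26.2 CPM), *Kcnd3*, a potassium channel gene (450 against 110 CPM), the mechanosensitive channel gene *Piezo2* (208 against 16.5 CPM) and the choline transporter gene *Slc5a7* (145 against 31.8 CPM). Among those lower in all 3 were *Tmtc2* (13.9 against 143 CPM), *Thsd7b* (229 against 928 CPM), the prohormone convertase gene *Pcsk2* (61.2 against 311 CPM) and the collagen gene *Col19a1* (4.37 against 80.3 CPM). The same split inside I2 was not made for cervical and thoracic nuclei.

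Other genes called by limma between regions inside I2 and I6 included *Slc6a5*, the glycine transporter gene, higher in lumbar/sacral I2 (1.15 on the log2 scale, adjusted p = 0.0418), and *Mpped2*, an interneuron marker of these data, lower in both clusters (-0.90, adjusted p = 0.0245 in I2, and -0.67, adjusted p = 0.0145 in I6). With 1 library left out in turn, *Slc6a5* was called in 1 of 9 fits and *Mpped2* in 4 of 9 in I2 and 6 of 9 in I6.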
